A study of Saccharomyces cerevisiae with 2 samples.

Results

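The flocculin genes FLO1, FLO5, FLO9, FLO10 and FLO11 (also called MUC1) were examined in budding yeast (Saccharomyces cerevisiae), as 5 of the 5904 reading frames that could be placed on the arrays. Their probes were those that the array files list for one of the 5 genes and whose midpoint lies in the reading frame or within 1000 bp upstream of the start codon. There were 47 such probes of 41282 nuclear probes, 26 in frames and 21 upstream, and 43 passed the filters on dim spots and outlier flags. The arrays compare a galactose-induced histone H3 carrying a Flag tag with a constitutive H3 carrying a Myc tag, in MDY513 cells, deleted for HTZ1, which codes for the histone variant H2A.Z. The cells were arrested with the mating pheromone alpha factor at 4 µg/mL during 4 h and then moved to rich medium (YP) with 2% galactose, and chromatin was taken 180 min after induction. The sources do not give the strain background, the mating type or whether alpha factor stayed in that medium. All samples form 1 group of 2 replicate arrays of this deletion strain, with no HTZ1 wild-type strain among them, so no strains or conditions were compared.

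Flocculins are glycoproteins anchored in the yeast cell wall, with a lectin-like or adhesive domain at the N terminus, a long middle part of tandem repeats rich in serine and threonine, and a C-terminal anchor signal. The products of FLO1, FLO5, FLO9 and FLO10 bind cells to each other, and that of FLO11 is known for filamentous growth, biofilms and adhesion to plastic. These genes are known to be kept silent in many laboratory conditions, by repressors and by the chromatin near chromosome ends. H3 is exchanged in nucleosomes also without DNA replication, and this exchange is known to be fast at many promoters and in strongly transcribed frames. In the present measurements, a high Flag over Myc ratio marks DNA whose H3 held a larger share of the induced form than that at the median probe.

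Levels are the log2 of Flag over Myc minus the median of the same array, given for replicate 1 and replicate 2 and as mean ± SD (n = 2). On this scale 0 stands for the array's median, not for equal amounts of both tagged histones. Calls of higher or lower rest on limma, with an adjusted p under 0.05 over the whole table. No label tells if the replicates were separate cultures. The p-values therefore cover the spread between these samples alone, and that spread may be technical. Across all used probes the median SD between the arrays was 0.16. The single probe in the frame of the deleted gene HTZ1 was not well above background in any channel.

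The 5 genes lie on 4 chromosomes, within 16099 to 45253 bp of the outermost probe of their chromosome arm, in the coordinates of the files (genome build not given in the sources used). FLO1 (YAR050W) occupies chromosome 1 from 203365 to 207978 on the forward strand and FLO9 (YAL063C) the same chromosome from 23972 to 27940 on the reverse strand. FLO5 (YHR211W) lies on chromosome 8 from 525362 to 528589, forward. FLO10 (YKR102W) lies on chromosome 11 from 645965 to 649474, forward, and FLO11 (YIR019C) on chromosome 9 from 389540 to 393643, reverse. Frame lengths, taken from the RefSeq gene table of assembly R64, were 4614, 3228, 3969, 3510 and 4104 bp for FLO1, FLO5, FLO9, FLO10 and FLO11.

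Probes covered these frames unevenly, and the middle parts, where the tandem repeats are known to lie, were thin. FLO10 had 9 frame probes and FLO11 had 8, against 4 in FLO1, 3 in FLO9 and 2 in FLO5. Between neighbouring midpoints, the largest stretch without a probe ran from 824 to 3214 bp after the start codon in FLO1, from 746 to 2502 bp in FLO9, from 725 to 1842 bp in FLO10 and from 832 to 2726 bp in FLO11. In FLO5 no probe lay beyond 495 bp. FLO1, FLO5 and FLO9 are close paralogs, and FLO10 is related to them, so a 60 bp probe in one may also read another, or several repeats of the same gene. Probe sequences were not used here, and how far such cross-reading shaped the ratios was not tested. None of the 26 frame probes was dim (0.0%), while 3 of the 21 upstream probes were (14.3%), beside 2.04% of the probes in any frame and 15.7% of those within 1000 bp upstream of any frame.

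All 5 reading frames carried less Flag relative to Myc than the array median. FLO1 stood at -1.57 and -1.50, with a mean of -1.53 ± 0.05, which is 2.89-fold below the median (adjusted p = 1.4e-05). FLO11 had -1.29 and -1.39, with a mean of -1.34 ± 0.06 (2.53-fold below, adjusted p = 2.4e-05). FLO10 was at -1.23 and -1.25, a mean of -1.24 ± 0.02 (2.37-fold below, adjusted p = 3.0e-05). These values lay close together on both arrays. FLO9 had -1.16 and -1.21, averaging -1.19 ± 0.03 (2.27-fold below, adjusted p = 3.6e-05). The least low was FLO5, at -0.65 and -0.92, averaging -0.79 ± 0.19 (1.72-fold below, adjusted p = 0.00043). A lower call was common, since 42.7% of the 5574 frames tested had one and 38.9% had a higher one, so the count of 5 lower genes is to be read beside that share.

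Among all frames, whose median was -0.06 and whose 5th percentile was -1.16, FLO1 ranked 32nd from the lowest, with 0.556% of frames below it. FLO11, FLO10 and FLO9 had 1.90%, 3.30% and 4.49% of frames below them, and FLO5 had 17.7%. Long frames were mostly low in these data. A comparison with the 394 frames of 3000 to 5000 bp was added after the values were seen, and it holds all 5 genes. Their median was -0.78 and 84.0% were called lower. Within this class FLO1 ranked 4th from the lowest, with 0.761% below it. FLO11, FLO10 and FLO9 had 7.61%, 11.9% and 15.5% of these frames below them, and FLO5 stood in the middle, with 49.2%.

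The order from FLO1 over FLO11, FLO10 and FLO9 to FLO5 was the same on both arrays. The gap from FLO9 to FLO5 was the widest, at 0.51 and 0.29 (0.40 ± 0.16). FLO11 exceeded FLO1 by 0.27 and 0.12. The steps from FLO11 to FLO10 (0.06 and 0.13) and from FLO10 to FLO9 (0.07 and 0.05) were below or about the median SD of a single probe. The order also depended on processing: with loess normalization FLO11 (-1.43) and FLO9 (-1.38) lay below FLO1 (-1.37), and with the median over probes FLO11 was lowest at -1.82. Each gene is read at other places of its frame, so the means do not compare like parts.

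**Figure D1:**
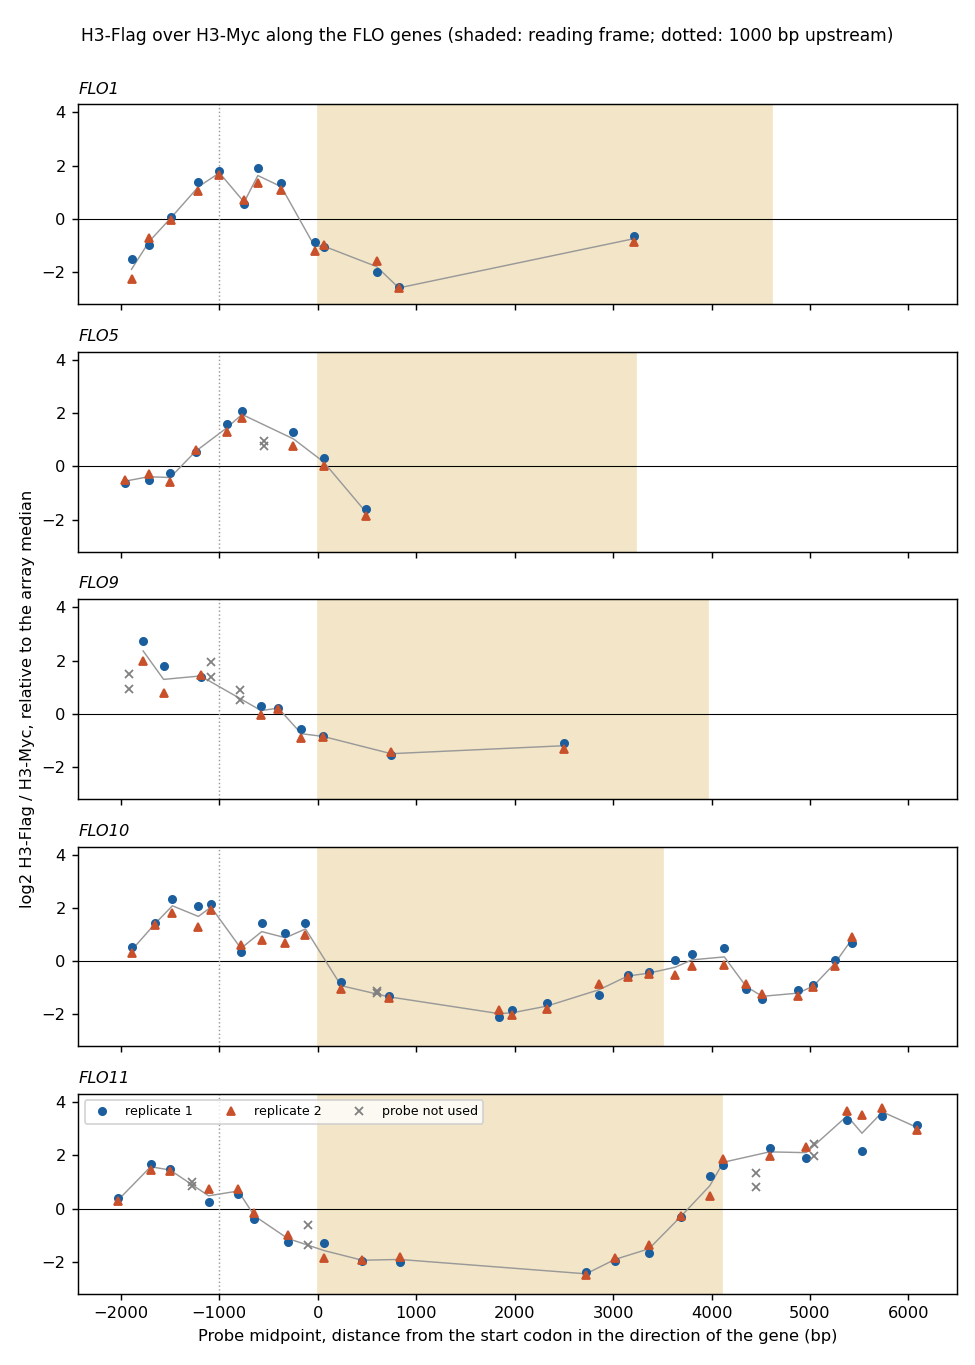
Each point is 1 probe on 1 array (circles replicate 1, triangles replicate 2, crosses probes not used), with log2 H3-Flag over H3-Myc relative to the array median on the vertical axis and the probe's distance from the start codon in bp on the horizontal axis, and the grey line joins the means. The frames (shaded) lie mostly below 0, down to -2.59 in FLO1, and the FLO11 ratio climbs past 0 near its stop codon. Within 1000 bp upstream (dotted line), probes of FLO1, FLO5 and FLO10 reach above 1. Farther upstream, used probes of FLO9 and FLO11 do so as well, up to 2.36 and 1.57.

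Probe by probe, 22 of the 25 used frame probes were lower than the median, 1 was higher and 2 did not pass. Over all 25921 single probes in frames, 49.8% were lower and 30.0% higher. A mean below -1 was found for 17 of the 25, against 26.1% of all frame probes. The 25 ranged from -2.59 to 0.86 with a median of -1.50.

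In FLO1 the ratio went down with distance into the frame before the stretch without probes. The probe at 61 bp had -1.05 and -0.99, that at 598 bp had -2.01 and -1.57, and that at 824 bp (chromosome 1, 204160 to 204219) had -2.57 and -2.60, the lowest frame probe of the 5 genes. Beyond the gap, the probe at 3214 bp stood at -0.63 and -0.85. FLO9 showed a shallower form of this, with -0.84 and -0.87 at 54 bp, -1.56 and -1.43 at 746 bp, and -1.09 and -1.32 at 2502 bp. The FLO5 mean combined unlike probes: 0.32 and 0.02 at 59 bp, which did not pass, and -1.62 and -1.86 at 495 bp. Its frame value therefore describes only the first part of the gene.

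FLO10, with the densest coverage, had a trough in the middle of its frame. Its ratios were -0.80 and -1.03 at 238 bp, then -2.11 and -1.83 at 1842 bp and -1.85 and -2.03 at 1973 bp. They came back to -1.27 and -0.87 at 2860 bp and to -0.42 and -0.49 at 3362 bp, near the stop codon; that last probe lost its lower call with loess (-0.38, adjusted p = 0.073). FLO11 was low at each probe from 68 to 3365 bp, with no probe midpoint between 832 and 2726 bp, and then turned. It had -1.95 and -1.93 at 453 bp, -2.0 and -1.81 at 832 bp, -2.40 and -2.49 at 2726 bp (-2.45 ± 0.06) and -1.66 and -1.36 at 3365 bp. At 3690 bp it had -0.30 and -0.28 and did not pass, but it was called lower with loess (-1.09), with normexp (-0.52) and without the dim filter (-0.38). The last frame probe, at 3983 bp, had 1.24 and 0.48 (0.86 ± 0.54) and was the only frame probe of the 5 genes called higher.

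Dividing each frame in 3 equal parts allowed a test of this shape in FLO10 and FLO11, the genes with a used probe in every part. The last part of FLO11 exceeded its middle part by 1.73 and 1.74 (1.74 ± 0.00, adjusted p = 0.00017), and 93.7% of frames had a smaller difference. That of FLO10 exceeded its middle by 1.1 and 1.25 (1.18 ± 0.10, adjusted p = 0.00056), with 82.2% of frames below. Over 3911 frames the median of this difference was 0.41, and 50.3% were called higher and 13.0% lower. The middle part of FLO11 rests on 1 probe, that of FLO10 on 3.

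First parts were also above middle parts, as in most genes. The difference was 0.80 and 0.69 in FLO10 (0.74 ± 0.08, adjusted p = 0.00087). In FLO11 it was 0.65 and 0.63 (0.64 ± 0.02, adjusted p = 0.0023), a call that loess ended (0.37, adjusted p = 0.093) and that stood at 0.35 with normexp background correction (adjusted p = 0.046). The median of all frames was 0.59, with 61.8% called higher and 8.92% lower, so both genes were close to the usual difference. FLO1 had no used probe in its middle part, FLO5 only in its first and FLO9 none in its last. The first part of FLO1 stood at -1.80 ± 0.11 over 3 probes and its last at -0.74 ± 0.15 for 1 probe.

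Upstream of the start codons the 5 genes divided. FLO5 had the highest ratio over 1000 bp, at 1.66 and 1.29, averaging 1.48 ± 0.26 or 2.78-fold above the median (adjusted p = 1.6e-12). FLO10 had 1.07 and 0.77, averaging 0.92 ± 0.21 (1.89-fold above, adjusted p = 1.9e-08), and loess lowered it to 0.54. FLO1 had 0.96 and 0.71, averaging 0.83 ± 0.17 (1.78-fold above, adjusted p = 9.5e-08). Those 3 genes were called higher, as were 65.1% of 5752 upstream regions. FLO9 stood at -0.02 and -0.26 (-0.14 ± 0.17, adjusted p = 0.25) and did not pass. FLO11 had -0.36 and -0.13 (-0.25 ± 0.17, adjusted p = 0.044) and was called lower, as were 17.9% of regions. The median upstream region stood at 0.65, and 17.7% and 21.1% of regions lay below FLO11 and FLO9, against 56.6%, 59.2% and 74.0% below FLO1, FLO10 and FLO5.

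FLO11 and FLO9 could not be ordered, since FLO9 was above FLO11 by 0.34 on replicate 1 and below it, with -0.13, on replicate 2. FLO1 exceeded FLO9 by 0.97 on both arrays, FLO10 exceeded FLO1 by 0.11 and 0.06, and FLO5 exceeded FLO10 by 0.59 and 0.52. The value of FLO11 depended on which probes counted, because 2 of its 3 used upstream probes lie in the neighbouring frame YIR020C. Those probes, at 807 and 644 bp before the start codon, had 0.66 ± 0.14 and -0.27 ± 0.16, and the latter was called lower only with normexp (-0.38). The probe at 306 bp, in no frame, had -1.27 and -0.98. With only probes in no frame, or with a 500 bp window, this probe alone was left. FLO11 then stood at -1.12 (adjusted p = 5.4e-07 and 1.3e-11), so these settings are not separate readings. Without the filter on dim probes FLO11 stood at -0.53. With loess it was -0.12 and no longer called (adjusted p = 0.39), and it was -0.13 without replicate 1. The FLO1 value depended on the window too, and fell to 0.09 over 500 bp (adjusted p = 0.59).

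Single upstream probes showed where these regional values came from. Of the 18 used, 12 were higher, 3 lower and 3 did not pass, beside 58.5% higher and 20.5% lower among 14444 such probes of any gene. FLO1 was high at 998 bp (1.73 ± 0.10), 608 bp (1.63 ± 0.41) and 370 bp (1.34 and 1.08) before its start codon. Its probe at 747 bp was less high, at 0.63 ± 0.09, and loess ended that call (0.2, adjusted p = 0.32). At 31 bp FLO1 was low, with -0.86 and -1.20. Between the neighbouring probes at 370 and 31 bp the ratio thus dropped. The place of the drop relative to the first codon was not resolved. FLO5 had 1.45 ± 0.21 at 922 bp, 1.95 ± 0.20 at 769 bp and 1.30 and 0.76 at 246 bp. FLO10 had values from 0.48 to 1.21, all 4 probes called higher, although the lowest of them, at 780 bp, stood at -0.13 with loess. In FLO9 the probes at 575 and 400 bp did not pass (0.12 ± 0.24 and 0.21 ± 0.03).

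Next to the start codon, the ratio was already below the median in 3 of the 5 genes. At the nearest used upstream probe within 400 bp, FLO11 had -1.12 ± 0.20 (adjusted p = 3.7e-09), FLO1 -1.03 ± 0.24 (adjusted p = 4.5e-08) and FLO9, with -0.58 and -0.91, a mean of -0.75 ± 0.23 (adjusted p = 3.7e-05). A lower call at this probe was found for 8.63% of 4819 genes and a higher one for 72.3%, and the median was 0.90. Of all genes, 1.1%, 1.43% and 3.05% lay below FLO11, FLO1 and FLO9. FLO10 and FLO5 were called higher here, at 1.21 ± 0.32 (adjusted p = 5.0e-10) and 1.03 ± 0.38 (adjusted p = 5.2e-08), near the usual level. The probes lie at different distances, from 31 bp in FLO1 to 306 bp in FLO11, and that at 94 bp before FLO11 was dim in the Flag channel of replicate 2 and not used.

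In each of the 5 genes the upstream DNA had a higher ratio than the frame, by over 2 log2 units in FLO1, FLO5 and FLO10 and by about 1 in FLO11 and FLO9. The difference was 2.52 and 2.22 in FLO1 (2.37 ± 0.22, 5.16-fold, adjusted p = 9.2e-40), 2.31 and 2.21 in FLO5 (2.26 ± 0.07, adjusted p = 2.6e-37) and 2.30 and 2.03 in FLO10 (2.16 ± 0.19, adjusted p = 7.1e-35). It was 0.93 and 1.26 in FLO11 (1.09 ± 0.23, adjusted p = 8.2e-12) and 1.14 and 0.95 in FLO9 (1.05 ± 0.14, adjusted p = 5.2e-11). A higher upstream value was called in 60.5% of 5503 genes and a lower one in 20.7%, with a median difference of 0.59. Of these genes, 93.1%, 92.0% and 90.8% had a smaller difference than FLO1, FLO5 and FLO10, and 67.2% and 65.6% a smaller one than FLO11 and FLO9. The FLO11 call ended with the 500 bp window (0.21, adjusted p = 0.28) and with probes in no frame (0.21, adjusted p = 0.30). Both settings left only the upstream probe at 306 bp. For these differences limma took nearly 1 common spread over all genes, which makes the p-values very small.

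**Figure D2:**
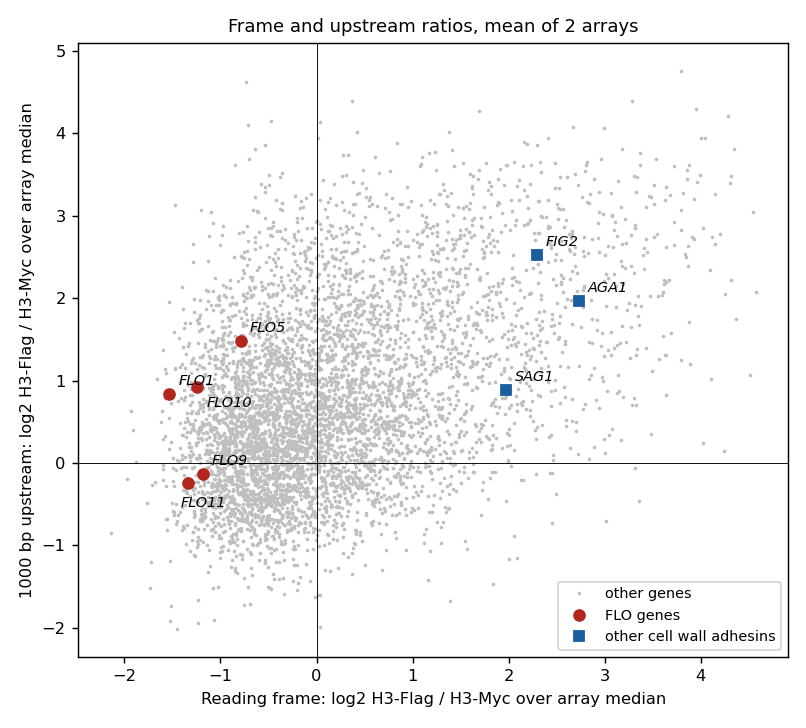
Each point is 1 gene, with the frame's log2 H3-Flag over H3-Myc relative to the array median on the horizontal axis and that of its 1000 bp upstream on the vertical axis, both as means of 2 arrays. The FLO genes (red circles) lie left of 0, from -1.53 to -0.79, and spread vertically from -0.25 to 1.48, while the mating adhesins AGA1, SAG1 and FIG2 (blue squares) lie between 1.97 and 2.73 on the horizontal axis.

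The adhesins of mating, which are also cell wall glycoproteins, lay on the other side of the median. AGA1, the anchor subunit of a-agglutinin, had 2.78 and 2.68 in its frame (2.73 ± 0.07, adjusted p = 1.6e-06). AGA2, the binding subunit of a-agglutinin, had 2.52 and 2.96 in its single used probe (2.74 ± 0.31, adjusted p = 5.2e-06). SAG1, the alpha-agglutinin, had 2.12 and 1.83 (1.97 ± 0.21, adjusted p = 1.0e-05), and FIG2, an adhesin of mating projections, had 2.29 and 2.30 (2.30 ± 0.01, adjusted p = 2.6e-06). AGA1, AGA2, SAG1 and FIG2 were thus all called higher, beside 38.9% of frames, and the FLO genes all lower, beside 42.7%. FLO frames ran from -1.57 to -0.65 on replicate 1 and from -1.50 to -0.92 on replicate 2. The mating adhesins ran from 2.12 to 2.78 and from 1.83 to 2.96, so the ranges did not overlap. Of all frames, 17.7% had a mean below FLO5, the highest FLO gene, and 91.5% below SAG1, the lowest mating adhesin. Both groups were chosen with earlier results of these data known, and their separation was not tested. The median of the mating adhesins exceeded that of the FLO genes by 3.64 and 3.75 (3.69 ± 0.08). Upstream, the 3 mating adhesins with a value were higher too, at 1.97 ± 0.20 for AGA1, 0.89 ± 0.32 for SAG1 and 2.53 ± 0.31 for FIG2. SAG1 lay within the upstream range of the FLO genes, and so did AGA1 when the window was 500 bp or only probes in no frame counted (0.71 in each case).

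Of the 19 nearest measured neighbours of the FLO genes, up to 2 on each side, 7 frames were called higher, 7 lower and 5 did not pass, a mix close to the 38.9% higher and 42.7% lower among all frames. FLO10 lay among low frames: SIR1, a silencing factor, had -1.20 ± 0.09, SKG1 -0.31 ± 0.10, NFT1, an ABC transporter homolog, -1.31 ± 0.14, and YKR104W -1.07 ± 0.22 (-0.60 with normexp). All 4 were called lower, though SKG1 lost that call with loess (-0.12, adjusted p = 0.38). FLO11 lay between the high frames of YIR018C-A (1.32 ± 0.24) and YAP5, a transcription factor of the iron response (1.62 ± 0.19), on its downstream side, and YIR020C (0.19 ± 0.15) and MRS1 (-0.20 ± 0.07), which did not pass, on its upstream side. MRS1 was called lower with normexp (-0.23) and without the dim filter (-0.30).

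Around the FLO1, FLO5 and FLO9 genes, neighbours were higher and lower. The nearest measured frame upstream of FLO1, YAT1, a carnitine acetyltransferase gene 11144 bp away, stood at 3.39 ± 0.30, and PRM9 at 0.42 ± 0.25, a call that normexp and loess ended. FLO9 has GDH3, a glutamate dehydrogenase gene, 3599 bp away at 1.22 ± 0.23, and next to it BDH2 at 0.37 ± 0.19, which normexp and loess left uncalled. At FLO5, YHR210C had -0.49 ± 0.03 (-0.18 and not called without the outlier filter), CRG1 0.04 ± 0.22 and PHO12, an acid phosphatase gene with close paralogs, -1.87 ± 0.58 for 1 probe (-3.2 with loess). YAR066W, on the far side of FLO1, did not pass (0.23 ± 0.32) and was lower with loess (-0.82).

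Genes known to act on FLO expression were read as 3 lists, activators, repressors and signalling proteins, which together held 36 genes. Repressor here means a protein known for repression of transcription in general. The direction of its effect on each FLO gene was not checked. Of these 36 frames, 18 were called higher, 12 lower and 6 did not pass, against 38.9% higher and 42.7% lower among all frames. Of the 35 with an upstream value, 32 were higher, 2 lower and 1 did not pass, against 65.1% higher and 17.9% lower.

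Among the 10 activators, 4 frames were higher, 1 lower and 5 did not pass, with a median of 0.17. TEC1 and STE12, the transcription factors of the filamentation pathway, had 3.49 ± 0.26 and 1.53 ± 0.18, and GCN4, the activator of amino acid synthesis, had 3.40 ± 0.09. FLO8, the activator of FLO1 and FLO11 that acts below protein kinase A, had -0.26 and 0.41 in its frame (0.08 ± 0.48, adjusted p = 0.67) but 2.32 and 2.40 upstream (2.36 ± 0.06, adjusted p = 1.2e-17). MSS11, the partner of Flo8, had a like form, with 0.21 ± 0.07 in the frame (adjusted p = 0.067, or 0.29 and called higher with the median over probes) and 2.59 ± 0.03 upstream (adjusted p = 1.3e-18). SNF1, the kinase that relieves glucose repression, was the 1 lower frame at -1.20 ± 0.02, and RIM101, a factor of the pH response, had -0.13 ± 0.19 and did not pass, though it was lower with normexp (-0.32), loess (-0.39) and the median over probes (-0.33). All 9 activators with an upstream value were called higher there, with a median of 1.20, but TEC1 (0.35) stood at -0.01 with loess, 0.72 without the dim filter and 0.77 without the outlier filter, and SNF1 (0.49) at -0.43 over 500 bp. FLO8 is a pseudogene in the RefSeq annotation of the reference strain, and whether it is intact in MDY513 is not given.

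All 12 repressors had a called frame, 8 higher and 4 lower, with a median of 0.57. NRG2 and NRG1, zinc finger repressors of FLO11, had 2.79 ± 0.20 and 2.54 ± 0.06, and SFL1, a repressor of several FLO genes, had 2.03 ± 0.16. The co-repressor subunits stood apart from these: TUP1 had -0.70 ± 0.18 (adjusted p = 0.0007), and CYC8 had 0.40 ± 0.07 (adjusted p = 0.0053), a call that ended with normexp (0.19) and without the outlier filter (0.16) and a value that turned to -0.17 with loess and to -0.43 with the median over probes. SOK2, a repressor of filamentous growth, and OPI1, a repressor of phospholipid synthesis, had -1.09 ± 0.08 and -0.74 ± 0.37 and were lower. Upstream, 11 of the 12 were higher and OPI1 did not pass (-0.05 ± 0.10), with a median of 2.41 beside 0.65 for all genes. Without the outlier filter OPI1 was lower at -0.43 (adjusted p = 0.0003). SOK2 joined a low frame with an upstream value of 3.05 ± 0.13, and CYC8 and TUP1 had 2.00 ± 0.17 and 1.18 ± 0.20 there. Over 500 bp CYC8 stood at 0.83, and without the dim filter TUP1 stood at 0.35, both still called higher.

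Of the 14 signalling genes, 6 frames were higher, 7 lower and 1 did not pass, with a median of -0.24. CDC42, which acts in cell polarity, and KSS1, the MAP kinase of the filamentation pathway, had 2.85 ± 0.07 and 2.11 ± 0.18. CYR1, adenylate cyclase, and STE7, the kinase above KSS1, had -0.98 ± 0.01 and -0.89 ± 0.01, the lowest of this list. Upstream, 12 were higher and 2 lower, with a median of 1.63, and STE7 was low there as well (-0.45 ± 0.02), though not over 500 bp (-0.11, adjusted p = 0.49).

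**Figure D3:**
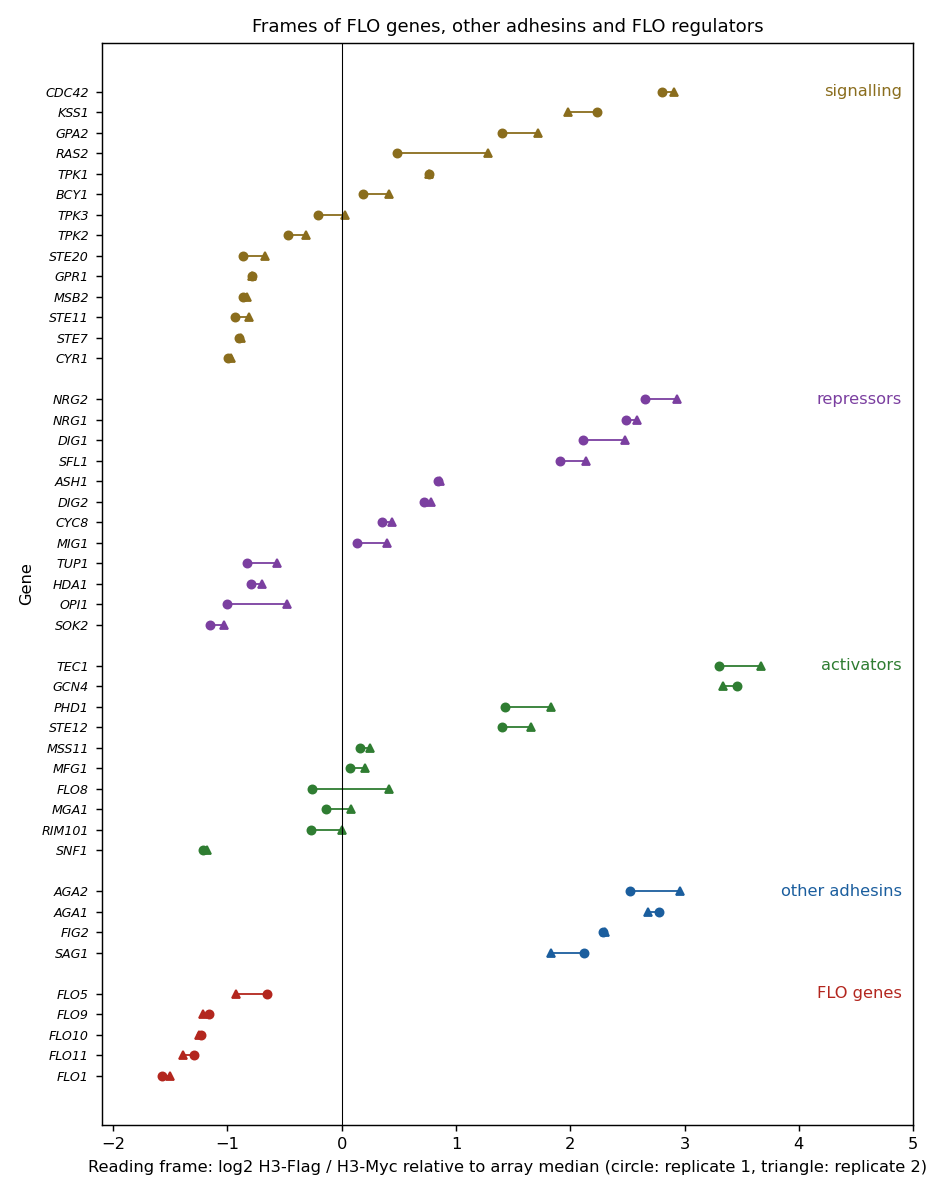
Each row is 1 gene, with the log2 H3-Flag over H3-Myc of its frame relative to the array median on the horizontal axis (circle replicate 1, triangle replicate 2, joined by a line), grouped as FLO genes, other adhesins, activators, repressors and signalling genes. The 5 FLO genes lie below 0 and the 4 other adhesins above 1.5 on both arrays, while each group of regulators lies on both sides of 0.

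Genes with a profile like that of FLO10 or FLO11 were found by the Euclidean distance over 4 values (upstream and 3 frame parts, each the mean of 2 arrays) among 3872 genes. FLO10 had 0.92 upstream, -1.13, -1.87 and -0.69 along its frame. PKC1, protein kinase C, was nearest at a distance of 0.09, with 0.90, -1.14, -1.83 and -0.62, followed by PDR18, an ABC transporter gene, at 0.19. FLO11 had -0.25, -1.81, -2.45 and -0.71. Its nearest genes were farther away, CDC15, a kinase of mitotic exit, at 0.69 and MTR10, a nuclear import receptor, at 0.71. Both had a shallower middle, at -1.90 and -1.95. FLO1, FLO5 and FLO9 lacked a value in at least 1 part and were not compared.

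**Figure D4:**
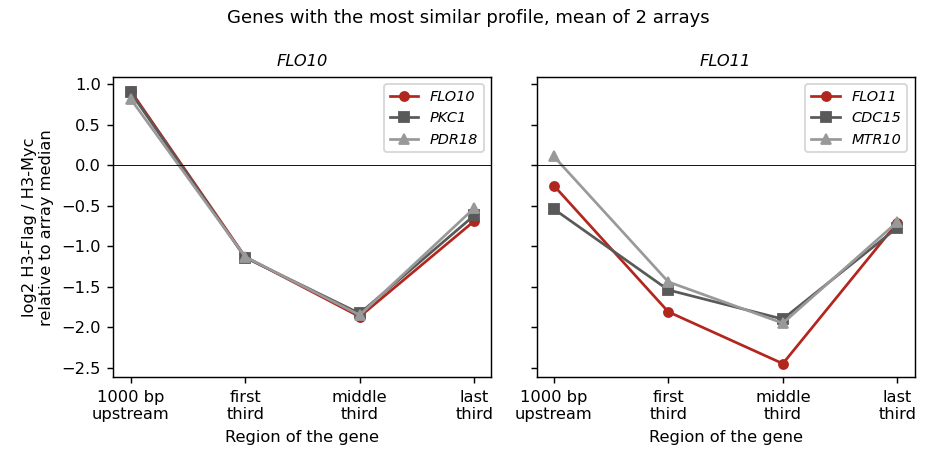
Lines join the log2 H3-Flag over H3-Myc relative to the array median (vertical axis, mean of 2 arrays) in 4 regions of a gene (horizontal axis), for FLO10 and FLO11 (red) and the 2 genes nearest to each (grey). PKC1 and PDR18 follow FLO10 closely, while CDC15 and MTR10 lie above FLO11 in the first and middle parts.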

How the data were processed

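Per the file headers, the deposited intensity of each spot came from Agilent's Feature Extraction software, version 8.5.1.1, after background subtraction, spatial detrending and linear dye normalization within the array. Per the labels, Cy5 (red) carried the Myc and Cy3 (green) the Flag precipitate on each array. There was no dye swap, so a dye effect cannot be told apart from the ratio. The log10 ratio in the deposited scanner output has Myc on top, per the file headers. In the deposited value table the same ratio is given as log2 without centring (medians 0.373 and 0.35 over all its rows; largest deviation 4.9e-08), so its sign was reversed for use.

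From the processed intensity values, log2 green over red was centred on the median of each array's used probes, so 0 is the median after filtering. That median was -0.46 on both arrays. Of 41282 nuclear probes, 3964 that missed the well-above-background flag in any channel of either array and a further 2419 with outlier flags were left out, which kept 34899; 0 were saturated. The arrays correlated at r = 0.97 across these probes, and the number of arrays limits the precision. Probes are 60 bp long and 267 bp apart (median). Frames were placed by the distances the files list, with lengths from RefSeq assembly R64: 5943 of 6593 matched, and 39 that the listing contradicted were dropped. Used probes of a region were averaged per gene. Tests used limma 3.58.1 in R 4.3.3 (intercept, eBayes, Benjamini-Hochberg over the whole table at 0.05), checked on simulated data. The members, gene lists and alternatives were chosen with earlier results of these data known. The text names the 5 members, HTZ1, the 2 nearest measured genes on each side, chosen regulators with the 2 highest and 2 lowest frames of each list, the other adhesins, and the 2 genes nearest in profile. Alternatives were normexp (offset 50), loess, arrays scaled to 1 spread, no dim or outlier filter, the deposited table, the median over probes, another upstream window or probe set, and leaving out each array.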

Additional observations from a re-analysis of the deposited data

How the results depend on the processing

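All 5 frames kept a lower call under normexp, loess, scaling to 1 spread, no dim filter, no outlier filter and the median over probes. The deposited value table holds the same ratios with the sign reversed, so it repeated the main values and is no separate check. Upstream probes in no frame were likewise the main probes for FLO1, FLO5, FLO9 and FLO10. Of 201 alternative values of the main results, 195 were classed as the same. Tested values in this class kept direction and call, and values from 1 array, which carry no test, kept direction. Counts of probes and regulators have neither, and all were put in this class even where they moved, as given below. The class also holds the repeats just named. The exceptions lay upstream and at the frame start. With a 500 bp window, FLO1 upstream stood at 0.09 and FLO11 upstream minus frame at 0.21. The latter was also 0.21 with probes in no frame, which left the same upstream probe. With loess, FLO11 upstream stood at -0.12 and its first minus middle part at 0.37. FLO9 upstream, which never passed, was 0.004 with normexp. Among named genes, sign and call both changed for CYC8, with -0.17 (loess) and -0.43 (median over probes), and for SNF1 upstream, with -0.43 (500 bp). The same held for TEC1 upstream, with -0.01 (loess), and YAR066W, with -0.82 (loess). Some uncalled values turned sign too and stayed uncalled, such as the frames of FLO8 (-0.08 with normexp) and MSS11 (-0.05 with loess) and OPI1 upstream (0.1 with loess). The cause was not tested. The 500 bp and no-frame settings kept fewer probes, nearer the start codon or outside frames, so number and place of probes changed together. These settings also moved the upstream median of all genes from 0.65 to 0.91 and 0.99. Lower frame probes numbered 22 or 23, and regulators 14 to 18 higher and 12 or 13 lower. Leaving out either array changed no sign among the FLO gene values. Probes free of a second match could not be chosen without probe sequences, so that alternative was not run. No paired analysis was possible because both arrays form 1 group. Upstream regions lost more probes to the dim filter than frames did.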

Other observations

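Past the stop codon of FLO11, the ratio went on climbing, in DNA that lies in no frame used here. The probe at 4120 bp from the start codon had 1.62 and 1.85, that at 5377 bp 3.31 and 3.66, and that at 5736 bp 3.48 and 3.78 (3.63 ± 0.21; limma adjusted p = 3.7e-34). The highest of them differed by 6.08 log2 units from the FLO11 frame probe at 2726 bp. Every used probe that the files list downstream of FLO11, out to 6092 bp, was called higher. Downstream of FLO10 the ratio varied: probes at 3629, 3802 and 4130 bp did not pass, and those from 4351 to 5035 bp were lower, down to -1.32 ± 0.12. The probe at 5253 bp did not pass, and the outermost, at 5423 bp, was higher at 0.81 ± 0.16 (adjusted p = 8.8e-06), a call that loess ended (0.17). With normexp the probes at 3629, 3802 and 4130 bp were all called higher (0.55, 0.57 and 0.40) and that at 5035 bp was not called (-0.11), while loess called 3629 bp lower (-0.84). These probes were looked at after their values were seen.

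Farther upstream, FLO9 had 1.42 ± 0.05 at 1190 bp and 2.36 ± 0.53 at 1773 bp before its start codon, although its nearest probe was low. FLO11, whose nearest used probe was low too, had 1.45 ± 0.06 at 1500 bp and 1.57 ± 0.17 at 1697 bp. In FLO10 the values were 2.08 ± 0.36 at 1476 bp and 0.43 ± 0.15 at 1886 bp. FLO1 went the other way, from 1.21 ± 0.23 at 1211 bp to -1.89 ± 0.53 at 1891 bp. FLO5 went from 0.56 ± 0.06 at 1241 bp to -0.56 ± 0.07 at 1961 bp.

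Of 6 annotated fragments that resemble FLO genes, 3 had a frame value. YAR061W, on the far side of FLO1, was lower at -0.47 ± 0.14 (-0.76 with loess), YAL065C, beyond FLO9, did not pass at 0.22 ± 0.06 (adjusted p = 0.051; 0.28 and called higher with normexp), and YHR213W-A, beyond FLO5, was higher at 2.24 ± 0.05 in a single probe. That probe is also the only one upstream of YHR213W-B.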
